A study of Mus musculus with 12 samples.

Results

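The Reg (regenerating islet-derived) genes Reg1, Reg2, Reg3a, Reg3b, Reg3d and Reg3g were followed across β-cells and non-β-cells of NOD mice. They are 6 of the 52962 genes in the table, matched to their Ensembl identifiers by symbol. RNA-seq was performed on islet cells of female NOD (NOD/ShiLtJ) mice, a strain that develops autoimmune diabetes spontaneously, at 4 and at 8 weeks of age. Islets were cultured overnight, dispersed, depleted of CD45-positive leukocytes and sorted by autofluorescence into a β-cell and a non-β-cell fraction. Each combination of fraction and age (4 groups) was represented by 3 samples, and the labels list no treatment or transgene in any group. The study describes each sample as a pool of 3 mice. No non-diabetes-prone strain is among these samples, so age, disease stage and sampling cannot be told apart.

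Reg genes encode small secreted proteins with a C-type lectin fold. In the pancreas they are made mainly by acinar cells, the exocrine cells that secrete digestive enzymes, and their transcripts rise strongly in injured or inflamed pancreas. Reg3b and Reg3g are best known as antibacterial lectins of the gut epithelium, induced by interleukin 22 and interleukin 6 family cytokines through the transcription factor STAT3. The family takes its name from transcripts of regenerating islets, and a growth-promoting role for β-cells has been proposed for Reg1 and Reg2. Since isolated islets always carry some acinar material, the acinar carboxypeptidases Cpa1 and Cpb1 were measured in the same 12 samples.

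The 6 genes form a cluster on mouse chromosome 6 (GRCm38), spanning 78370657 to 78468872, or 98.2 kb, in the GENCODE M21 annotation. In order along the chromosome they are Reg3b (78370657 to 78373466, + strand), Reg3d (78375874 to 78378865, − strand), Reg3a (78380709 to 78383827, + strand), Reg2 (78395623 to 78408106, + strand), Reg1 (78422711 to 78428667, + strand) and Reg3g (78466269 to 78468872, − strand). No other annotated gene overlaps any of them. Their coding sequences are 495 to 525 bases long. The most similar pair is Reg1 and Reg2, whose coding sequences share 82.6% of aligned bases, followed by Reg3b and Reg3g with 76.4%, and the least similar is Reg2 and Reg3g with 60.0%. Despite this likeness, the stretches of 31 bases with which reads are assigned were almost entirely specific within the family. Reg3b and Reg3g shared 5 such stretches and no other pair of Reg genes shared any. Reg1 shared 51 of its 895 and Reg2 70 of its 915 such stretches with transcripts outside the family.

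The sequences before the RefSeq transcription starts of the 3 genes with the most counts are shown because Reg genes are known targets of STAT3 and of acinar transcription factors. The windows come from RefSeq (build GRCm38.p6), run 5′ to 3′ on the + strand and leave out bases that GENCODE M21 places in an exon. The GENCODE models of these genes begin farther upstream, so the windows lie inside the gene spans given above. They lie at chr6:78425733-78425929 for Reg1, chr6:78404905-78405154 for Reg2 and chr6:78370707-78370860 for Reg3b. Capitals mark matches on either strand to the STAT motif TTCNNNGAA, the C/EBP motif TTGCNNAA, the E-box CACCTG or the RBPJ box TTCCCA. The E-box and the RBPJ box are the motifs bound by the acinar factor complex of Ptf1a with Rbpjl.
Reg1: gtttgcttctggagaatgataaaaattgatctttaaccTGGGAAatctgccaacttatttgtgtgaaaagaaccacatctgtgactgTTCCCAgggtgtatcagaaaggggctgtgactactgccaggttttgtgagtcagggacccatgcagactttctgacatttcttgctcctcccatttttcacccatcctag
Reg2: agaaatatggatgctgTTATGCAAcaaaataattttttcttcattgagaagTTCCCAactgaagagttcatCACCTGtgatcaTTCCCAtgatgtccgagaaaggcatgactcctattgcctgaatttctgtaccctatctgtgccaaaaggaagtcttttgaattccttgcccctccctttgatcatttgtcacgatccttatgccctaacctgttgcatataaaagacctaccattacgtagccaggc
Reg3b: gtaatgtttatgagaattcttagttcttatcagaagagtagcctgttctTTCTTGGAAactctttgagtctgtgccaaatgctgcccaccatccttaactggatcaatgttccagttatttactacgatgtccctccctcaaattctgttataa

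In Reg3b, the capitals mark the STAT motif TTCTTGGAA, which began 129 bases before the start. An E-box match of the same gene, 214 bases before the start, lies outside the sequence shown. Reg1 had 2 RBPJ box matches in these windows and Reg2 had 2 RBPJ box matches, 1 E-box and 1 C/EBP match. In windows of 300 bases around the starts, STAT motifs were found for 2 of the 6 Reg genes (Reg3b and Reg3d) and in 8.30% of 32851 promoters. The match in Reg3d overlapped an RBPJ box match. C/EBP motifs were found for 2 of 6 (Reg2 and Reg3a) against 10.8% of promoters, E-boxes for 4 of 6 (Reg2, Reg3a, Reg3b and Reg3d) against 20.2%, and RBPJ boxes for 5 of 6, Reg3b being the exception, against 25.6%. Neighbouring Reg genes share ancestry and are not independent promoters, and a match in letters does not show that a factor binds.

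Sequencing depth ranged from 13755106 to 27040652 estimated counts per sample, so that 3 counts corresponded to 0.113 to 0.224 CPM (a count unit corrected for depth and TMM-scaled between samples). Insulin and glucagon transcripts followed the labels, with Ins2 higher by 5.36 and Gcg differing by −5.98 on the log2 scale in β-cells at 8 weeks. Of 14 leukocyte markers 2 were tested, and their list summed to 51.7 to 77.6 CPM in β samples and 8.71 to 20.7 CPM in non-β samples. Most of this was Cd68, a lysosomal protein abundant in macrophages, which rose with age by 0.51 in β-cells (adjusted p = 0.0136) and by 0.81 in non-β-cells (adjusted p = 0.0106). Cd79a had means of 0.429 to 3.59 CPM. Ptprc, which encodes CD45, had at most 0.789 CPM in any sample and at most 0.0396 CPM in β samples. The other myeloid markers on the list, Adgre1, Itgam, Itgax, Lyz2 and Csf1r, had at most 0.120, 0.344, 0.360, 0.842 and 0.916 CPM in any sample. The part of leukocytes in the Reg values was not tested. Reg1, Reg2 and Reg3b had enough reads to be tested with limma-voom, for which a CPM above 1 before TMM scaling was required in at least 3 samples. Reg3a and Reg3d exceeded 1 CPM in 2 samples each and Reg3g in 1, all of them 8-week β-cells, and the family's tests below therefore cover 3 of 6 members unless stated. Because these were sorted bulk samples, a change in the number of cells of some type and a change in transcript per cell cannot be told apart.

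Reg1 was the most abundant member. The 3 young β samples held 8.50, 3.25 and 5.32 CPM, and the 8-week β samples held 34.3, 20.0 and 21.1 CPM. The young non-β samples held 3.48, 0 and 2.51 CPM and the 8-week ones 24.5, 7.47 and 6.17 CPM. Within each fraction the 2 ages did not overlap, whereas the 8-week non-β samples spanned the gap between the young and the older β-cells.

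Reg2, its closest relative, was low at 4 weeks, with no reads in a sample of each fraction. It had 2.19, 0.396 and 0 CPM in young β-cells and 1.57, 0.685 and 0 CPM in young non-β-cells. At 8 weeks it had 18.5, 9.38 and 8.46 CPM in β-cells and 10.2, 2.54 and 5.24 CPM in non-β-cells. Again no sample of 8 weeks fell within the range of 4 weeks in either fraction.

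Reg3b, the antibacterial lectin also known from acute pancreatitis, had 2.39, 1.55 and 1.28 CPM in the young β samples and 14.1, 6.94 and 8.06 CPM in the older ones. In non-β-cells 1 of the 3 young samples had 0.727 CPM and the other two had none, whereas the 8-week samples had 6.32, 2.62 and 2.47 CPM. Reg3b was detected in every sample of 3 groups and in a single young non-β sample.

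The remaining members were scarce. Reg3a had 30, 34 and 22 counts in 8-week β-cells, 2, 0 and 0 in 4-week β-cells, 10, 0 and 0 in 4-week non-β-cells and 16, 0 and 0 in 8-week non-β-cells. Reg3d had 23, 27 and 27 counts in 8-week β-cells, 4, 0 and 0 in 4-week β-cells, none in 4-week non-β-cells and 4, 0 and 2 in 8-week non-β-cells. Reg3g, the partner of Reg3b in gut defence, had 49, 15 and 11 counts in 8-week β-cells and 1, 2 and 3 in 4-week β-cells, against 8, 0 and 0 and then 19, 3 and 18 in non-β-cells. Reg3a and Reg3d had counts in every sample of 8-week β-cells and of no other group, whereas Reg3g missed samples in the 4-week non-β group alone.

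**Figure D1:**
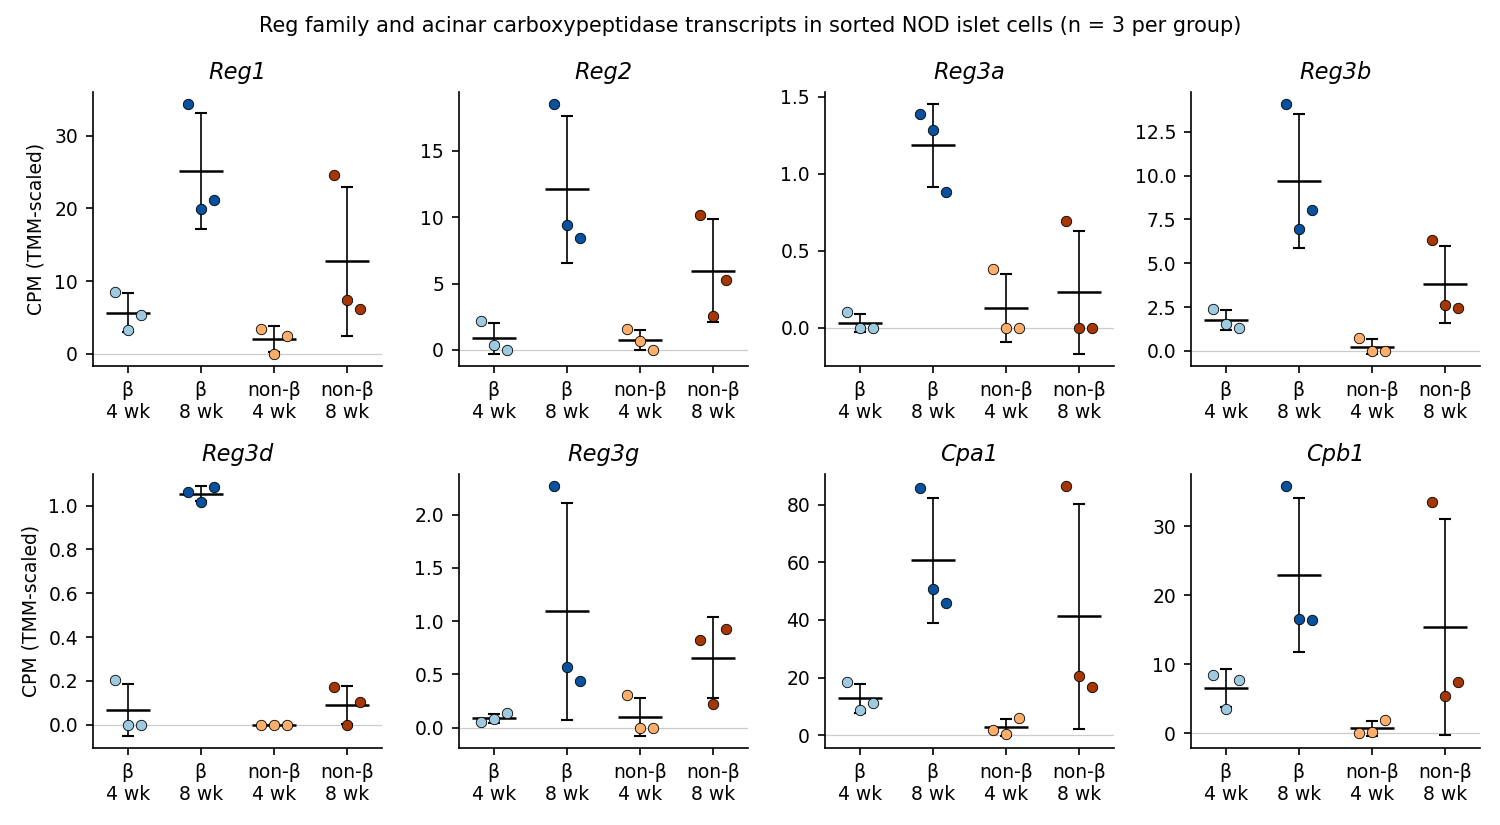
TMM-scaled CPM (y axis, a separate linear scale for each gene) of the 6 Reg genes and of Cpa1 and Cpb1 in the 4 groups (x axis), with each sample as a point, the group mean as a horizontal line and the SD as an error bar (n = 3). All 6 Reg genes were higher in every 8-week β sample than in any 4-week β sample, and replicate 1 was the highest 8-week sample for Reg1, Reg2, Reg3b, Cpa1 and Cpb1 in both fractions.

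Ranked by group mean, Reg1, Reg2 and Reg3b shared the order 8-week β-cells, 8-week non-β-cells, 4-week β-cells, 4-week non-β-cells. For Reg1 the means were 25.1 ± 7.95, 12.7 ± 10.3, 5.69 ± 2.64 and 2.00 ± 1.80 CPM (SD, n = 3 each). For Reg2 they were 12.1 ± 5.55, 5.98 ± 3.87, 0.862 ± 1.17 and 0.751 ± 0.786 CPM. For Reg3b they were 9.69 ± 3.83, 3.80 ± 2.18, 1.74 ± 0.579 and 0.242 ± 0.420 CPM. The 8-week non-β-cells and 4-week β-cells overlapped in range for Reg1 but not for Reg2 or Reg3b, and that pair of groups, which differ in age and in cell fraction, was not tested.

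Divided by transcript length, so that genes can be compared with each other, Reg1 made up 49.7% ± 2.52 of the family's CPM per kb in 8-week β-cells, Reg2 25.5% ± 2.50 and Reg3b 18.4% ± 1.25 (SD, n = 3). In 4-week β-cells the shares were 67.8% ± 9.92 for Reg1, 8.64% ± 8.85 for Reg2 and 21.5% ± 6.22 for Reg3b. Reg2 reached at most 17.7% in a 4-week β sample and at least 22.9% in an 8-week β sample, so its share did not overlap between ages. Non-β-cells at 8 weeks had shares of 51.3% ± 9.64, 28.2% ± 8.34 and 16.5% ± 2.79 for the same 3 genes, a comparison across fractions that was not tested. Reg3a, Reg3d and Reg3g each stayed at or below 3.09% in every 8-week β sample.

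The comparison of ages in β-cells asks which transcripts change in these cells over the weeks in which islet infiltration develops in this strain. Reg1, Reg2 and Reg3b were all upregulated at 8 weeks (3 of 3 tested members). Of all 15598 genes tested, 8.59% were called higher. Reg1 rose by a log2 fold change of 2.24 (SE 0.59, adjusted p = 0.0199), or 4.72-fold. Reg3b rose by 2.43 (SE 0.52, adjusted p = 0.00650), or 5.40-fold. For Reg2 the fitted log2 fold change was 5.39 (SE 1.60, adjusted p = 0.0342), a size that leaned on the young sample with no reads. Without that sample it was 3.67 with an adjusted p of 0.0460. The hormone transcripts of the β fraction also moved with age. Ins1 (1.51, adjusted p = 0.000681) and Ins2 (1.03, adjusted p = 0.00688) rose, and Gcg (−1.80, adjusted p = 7.36e-05) and Ppy (−1.72, adjusted p = 0.000831) fell, and the part of this shift in the Reg values was not tested.

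The 3 tested members were higher in each 8-week β sample than in each 4-week β sample, a pattern found for 20.7% of tested genes. The same held for Reg3a, Reg3d and Reg3g, which were not among those genes. In a fit with no filter on low counts, Reg3d (log2 fold change 4.39, SE 0.78, adjusted p = 0.00285) and Reg3a (4.82, SE 0.98, adjusted p = 0.00708) were also called higher, which made 5 of 6 members, where 4.16% of 28647 genes were called higher. Reg3g had a difference of 2.93 (SE 1.06, adjusted p = 0.117). These 3 genes rested on few counts, and neither Reg3a (adjusted p = 0.0658 and 0.0554) nor Reg3d (0.128 and 0.0509) was past the threshold with edgeR or DESeq2.

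The calls were not equally firm. Reg3b was called without each of the 12 samples in turn, with adjusted p-values from 0.00443 to 0.0320, and with edgeR and DESeq2. Reg1 missed the threshold with edgeR (adjusted p = 0.0697) and DESeq2 (0.161), without replicate 2 of 4-week β-cells (0.0790) and without replicate 1 of 8-week β-cells (0.0609). Reg2 missed it without replicate 1 (0.102) or 2 (0.101) of 4-week β-cells and without replicate 2 of 8-week β-cells (0.0531).

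Among non-β-cells, Reg3b was the single member past the threshold with age, with a log2 fold change of 5.43 (SE 1.66, adjusted p = 0.0394). This is 1 of 3 tested members, beside 11.6% of all genes called higher. Reg1 differed by 4.05 (SE 1.54, adjusted p = 0.0970) and Reg2 by 4.10 (SE 1.59, adjusted p = 0.102). For each of these 3 genes the ages did not overlap, as for 19% of all tested genes. The young non-β samples held 0 to 91 counts of any Reg gene, and the 8-week replicate 1 held 42.7 CPM of summed Reg transcripts where replicates 2 and 3 held 12.8 and 14.9 CPM. Without that replicate the adjusted p of Reg3b was 0.0785, and 6 of the 12 fits that left out a sample lost the call, with adjusted p-values up to 0.0988.

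The fractions were compared within each age to ask whether the transcripts differed in level between them. At 4 weeks no member passed the threshold between β-cells and non-β-cells, although 48.5% of all genes did. Reg3b was closest, with a log2 difference of 4.28 in favour of β-cells (SE 1.69, adjusted p = 0.0507). Reg1 differed by 2.91 (SE 1.57, adjusted p = 0.143) and Reg2 by −0.34 (SE 2.19, adjusted p = 0.910). The fractions of Reg3b did not overlap, as was the case in the same direction for 26.5% of genes. Reg3b alone had an unadjusted p under 0.05, edgeR and DESeq2 each called it, and limma-voom without the filter called it too (adjusted p = 0.00803), where 13.7% of genes were called higher in β-cells.

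At 8 weeks Reg3b was higher in β-cells by a log2 difference of 1.28 (SE 0.41, adjusted p = 0.0209), or 2.43-fold, with no overlap between fractions, as for 32.4% of genes. It was again 1 of 3 tested members, where 23.6% of genes were called higher in β-cells. The call was lost with edgeR (adjusted p = 0.166) and DESeq2 (0.134), without replicate 1 of 8-week β-cells (0.0559), and without replicate 2 (0.0644) or 3 (0.109) of 8-week non-β-cells. Reg1 differed by 1.10 (SE 0.50, adjusted p = 0.0879) and Reg2 by 0.94 (SE 0.53, adjusted p = 0.155), and both overlapped between fractions. Without the filter Reg3a (3.93, adjusted p = 0.0177) and Reg3d (3.59, adjusted p = 0.00627) were called higher in 8-week β-cells, along with 12.2% of genes, and Reg3b was not (0.0566), while edgeR without the filter called no member.

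No member passed the threshold in the test of whether the age difference itself differed between fractions, in which 5.13% of all genes did. The interaction was −1.81 for Reg1 (adjusted p = 0.615), 1.28 for Reg2 (adjusted p = 0.822) and −3.00 for Reg3b (adjusted p = 0.385). In this fit no unadjusted p was under 0.05, and edgeR and DESeq2 called none. In limma-voom without the filter, Reg3b (−3.31, adjusted p = 0.208) and Reg3a (4.37, adjusted p = 0.217) had unadjusted p-values under 0.05. With SEs of 1.65 for Reg1, 2.25 for Reg2 and 1.74 for Reg3b, like and unlike age effects in the 2 fractions could not be distinguished.

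Acinar transcripts moved with the same samples. Summed over Cpa1 and Cpb1, the signal was 27.0, 12.3 and 18.8 CPM in 4-week β-cells and 121, 67.2 and 62.2 CPM in 8-week β-cells. In non-β-cells it was 1.95, 0.391 and 7.79 CPM at 4 weeks and 120, 26.0 and 23.9 CPM at 8 weeks. The 2 ages did not overlap in either fraction, and replicate 1 was the highest 8-week sample of each fraction.

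In the same fit, Cpa1 was higher at 8 weeks in β-cells (log2 fold change 2.28, SE 0.57, adjusted p = 0.0156) and in non-β-cells (4.47, SE 1.36, adjusted p = 0.0392). Cpb1 differed by 1.83 in β-cells (SE 0.60, adjusted p = 0.0524) and by 5.68 in non-β-cells (SE 2.21, adjusted p = 0.105). The corresponding differences of Reg1 were 2.24 and 4.05. Of a list of 28 acinar enzymes, 24 were tested, and 15 rose and none fell with age in β-cells, with a median log2 fold change of 1.77 against 0.02 over all tested genes. In non-β-cells 5 of the 24 rose and none fell, with a median of 4.72 against 0.01. Of all 15598 tested genes, 1340 were called higher and 1459 lower in β-cells, and 1813 and 748 in non-β-cells. The proenzyme genes Ctrb1 (chymotrypsinogen) and Prss2 (trypsinogen) rose in β-cells by 2.25 and 2.33, with adjusted p-values of 0.0145 and 0.0109.

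The whole acinar enzyme list summed to 177 to 378 CPM in the young and 778 to 1613 CPM in the older β samples, and to 61.3 to 186 and 358 to 1355 CPM in the corresponding non-β samples. Cela3a and Prss1 were at 0 in all samples, and the amylase genes Amy2a2, Amy2a3 and Amy2a4 had identical counts so that their separate values are uncertain, as reads are divided among near-identical copies. These copies count as 3 of the 24 tested enzymes and of the 15 that rose in β-cells. Their shared log2 fold change there, 1.77, is also the list median. The elastase gene Cela1 had 624 to 892 counts in the 4-week non-β samples, where Cpb1 had 1 to 40. Of 11 acinar regulators and secretory granule genes, 7 were tested, and 4 rose in β-cells (Bhlha15, Gp2, Sycn and Spink1) and none fell. In non-β-cells 4 rose (Gp2, Sycn, Zg16 and Spink1) and Bhlha15 fell. The acinar lineage factor Ptf1a had at most 27 counts, in replicate 1 of 8-week β-cells, and 18 in replicate 1 of 8-week non-β-cells.

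**Figure D2:**
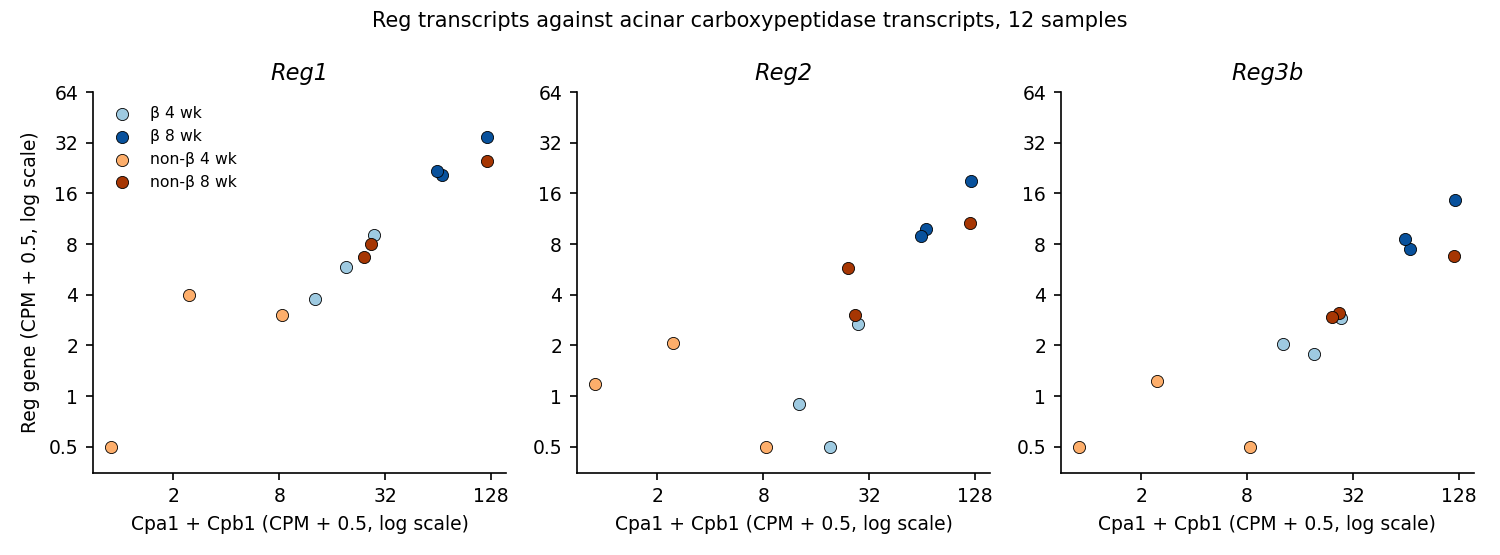
TMM-scaled CPM plus 0.5 of Reg1, Reg2 and Reg3b (y axis, log scale) against the summed CPM of Cpa1 and Cpb1 plus 0.5 (x axis, log scale), with each of the 12 samples as a point coloured by group. Reg1 rose with the carboxypeptidase sum across the β-cell samples of both ages, while the 4-week non-β-cell samples scattered and Reg2 was at 0 CPM in a 4-week sample of each fraction.

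Each member was then set against Cpa1 and Cpb1 in the same sample. The ratio of Reg1 to the carboxypeptidase sum, each with 0.5 CPM added, was 0.292 to 0.328 in 4-week β-cells and 0.285 to 0.344 in 8-week β-cells, so the ages overlapped, while the level itself differed 4.72-fold. The ratio of Reg3b was 0.0926 to 0.159 in 4-week β-cells and 0.110 to 0.137 in 8-week β-cells, which also overlapped. The ratio of Reg2 was 0.0260 to 0.0979 at 4 weeks and 0.143 to 0.156 at 8 weeks, where the lowest value came from the sample with no Reg2 reads and holds only the added 0.5 CPM. In 4-week non-β-cells the ratios were 0.364 to 1.62 for Reg1, 0.0603 to 1.33 for Reg2 and 0.0603 to 0.561 for Reg3b, with few counts of either kind. Both ends of that Reg3b range and the lowest Reg2 value came from samples with no reads of the gene. They hold only the added 0.5 CPM above the line. In 8-week non-β-cells the ratios were 0.208 to 0.301 for Reg1, 0.0886 to 0.235 for Reg2 and 0.0566 to 0.122 for Reg3b.

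For the whole family, the ratio of summed Reg CPM to summed Cpa1 and Cpb1 CPM was 0.507, 0.450 and 0.376 in 4-week β-cells and 0.591, 0.586 and 0.646 in 8-week β-cells. The mean log2 ratio was higher by 0.46 at 8 weeks, and the exact permutation test gave p = 0.1, the smallest that 3 against 3 samples can give. In non-β-cells the ratios were 2.84, 1.33 and 0.364 at 4 weeks and 0.359, 0.504 and 0.631 at 8 weeks, a difference of −1.20 (exact permutation p = 0.3). The 4-week non-β replicate 1 stood out with 91 counts of Reg1 and 41 of Reg2 beside 50 of Cpa1 and 1 of Cpb1. β-cells and non-β-cells differed in the log2 ratio by −1.33 at 4 weeks (exact permutation p = 0.4) and by 0.32 at 8 weeks (exact permutation p = 0.3). When all 28 acinar enzymes were used as the denominator, the non-β age difference became 0.33 and the 4-week difference between fractions 0.11, so their sign rested on the choice of acinar genes.

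When the log2 sum of Cpa1 and Cpb1 was added to the model as a covariate, none of the 3 members was called between ages in β-cells, while 8.57% of all genes still were in either direction. Reg2 alone had an unadjusted p under 0.05 (0.0178), and edgeR with the same covariate called none. The log2 age difference was then 0.34 for Reg1 (SE 0.38, adjusted p = 0.614), 1.07 for Reg3b (SE 0.54, adjusted p = 0.243) and 4.19 for Reg2 (SE 1.53, adjusted p = 0.114). With the sum of the 28 acinar enzymes as covariate, under which 5.65% of all genes were called, Reg1 differed by 0.30 (adjusted p = 0.757), Reg3b by 1.04 (adjusted p = 0.297) and Reg2 by 3.98 (adjusted p = 0.177). Relative to the fit without a covariate, Reg1 kept the smallest part of its difference in either fit and Reg2 the largest, with a wide error.

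The slope of Reg1 on the carboxypeptidase index was 0.86 per log2 unit (SE 0.13, adjusted p = 0.0173), and 38 genes, or 0.244% of those tested, had a slope past the threshold. The slopes of Reg3b (0.65, SE 0.18, adjusted p = 0.437) and Reg2 (0.58, SE 0.31, adjusted p = 0.999) did not pass it. In non-β-cells the age differences with this covariate were −0.20 for Reg1, 0.98 for Reg2 and 2.82 for Reg3b, none of them called, where 2.11% of genes were. With the acinar enzyme list they were 0.68, 1.97 and 3.54, again with none called, where 3.69% of genes were. Between fractions at 4 weeks no member was called with the carboxypeptidase index (28.8% of genes were), and Reg3b was called with the list index (3.33, SE 1.17, adjusted p = 0.0423), as were 37.1% of genes. At 8 weeks none was called with either index, under which 45.6% and 44.7% of genes were. The index itself did not overlap between ages in either fraction, so the part of the difference that age and acinar signal share cannot be told apart in these fits. Which cells the Reg transcripts came from was not tested.

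**Figure D3:**
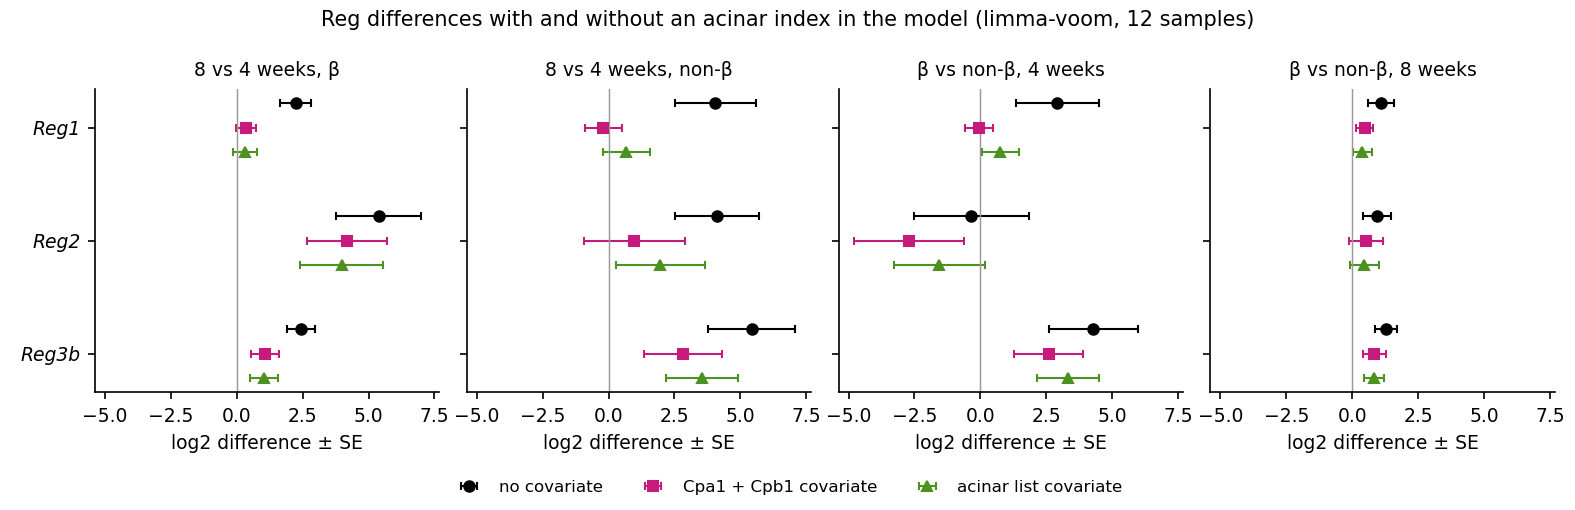
Log2 differences (x axis, limma-voom) of Reg1, Reg2 and Reg3b (y axis) in the 4 comparisons, with no covariate (circles), with the Cpa1 and Cpb1 index (squares) and with the acinar list index (triangles) in the model, and error bars of 1 SE over 12 samples. In β-cells the age difference of Reg1 moved from 2.24 to 0.34 with the carboxypeptidase index, whereas that of Reg2 moved from 5.39 to 4.19.

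The genes most like each member over the 12 samples, by Pearson correlation of log2 CPM, are given as a description. For Reg1 they were Pnliprp1 (r = 0.994, Spearman rho = 0.979), a pancreatic lipase relative, and the trypsinogens Prss2 (r = 0.991, rho = 0.958) and Try5 (r = 0.990, rho = 0.986). Pnliprp1 had a mean of 10.0 CPM in 4-week and 42.5 CPM in 8-week β-cells, and 2.82 and 22.2 CPM in non-β-cells. Cpa1 ranked 13 (r = 0.955) and Cpb1 ranked 128 (r = 0.812) for Reg1.

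For Reg3b the closest genes were Rhbdl2 (r = 0.953, rho = 0.928), a rhomboid protease, and the zymogen granule genes Gp2 (r = 0.945, rho = 0.939) and Sycn (r = 0.938, rho = 0.881). Gp2 had 4.20 and 16.6 CPM in 4-week and 8-week β-cells and 0.146 and 8.83 CPM in non-β-cells. For Reg2 none of the closest genes was an acinar gene. They were Pcdhga4 (r = 0.952, rho = 0.928), a protocadherin, Slc12a7 (r = 0.950, rho = 0.921), a potassium chloride cotransporter, and the predicted gene Gm13528 (r = 0.939, rho = 0.844), and Cpa1 ranked 1164 (r = 0.597, rho = 0.855). The zeros of Reg2 in the 4-week samples weigh on its r. All these correlations describe 12 samples that share 4 groups and the 8-week replicates 1, and they carry no test.

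Upstream of Reg genes, the list of the proposed receptor Extl3, the interleukin 6, interleukin 22 and interleukin 17 receptor chains and ligands, and their signalling genes held 22 members, of which 19 were tested. In β-cells, where 8.59% of all tested genes were called higher, 5 rose with age and none fell, with a median log2 fold change of 0.23. These were the signal transducer Stat3 (0.57, adjusted p = 0.00204), its target and feedback inhibitor Socs3 (1.52, adjusted p = 2.23e-05), the transcription factor Cebpd (2.17, adjusted p = 1.65e-05), the NF-κB cofactor Nfkbiz (1.32, adjusted p = 7.87e-06) and the cytokine Lif (1.57, adjusted p = 0.00861). Socs3 had 36.1, 40.9 and 46.5 CPM in 4-week β-cells and 122, 122 and 109 CPM at 8 weeks. Its 8-week replicates 1 and 2 had the same value to this precision, and the Reg1, Reg2 and Reg3b values of replicate 1 stood above those of replicate 2. The contrast between these replicates was not tested.

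In non-β-cells, where 11.6% of all tested genes were called higher, 8 of the 19 rose and 1 fell, with a median of 0.31. Il6 rose by 3.43 (adjusted p = 0.000411), with 4.70, 1.13 and 4.78 CPM at 4 weeks and 28.7, 25.9 and 47.9 CPM at 8 weeks. Lif (3.27), Osmr (3.15), which encodes the oncostatin M receptor, Nfkbiz (1.67), Cebpd (1.33), Socs3 (0.60), Jak1 (0.48) and Stat3 (0.36) rose as well, and Cebpb (−0.52) fell. The rise of Socs3 was larger in the β fraction (interaction 0.91, SE 0.20, adjusted p = 0.0194), and that of Lif was larger in the non-β fraction (−1.70, SE 0.40, adjusted p = 0.0269). Extl3 was present at 43.7 to 51.9 CPM in the means of all 4 groups and differed by 0.25 in β-cells (adjusted p = 0.376). Interleukin 22 and its receptor chain Il22ra1 were near the limit of detection. Il22 had at most 0.685 CPM and Il22ra1 at most 0.356 CPM in any sample, and Osm was at 0 throughout. The receptor chain Il10rb, on the same list, had group means of 24.5 to 27.6 CPM.

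Acute phase genes, which respond to the same cytokines in other tissues, also rose with age. Of 14 listed, 9 were tested, and 7 rose in β-cells (median log2 fold change 3.04) and 9 in non-β-cells (median 4.54), with none lower. Over all tested genes the shares called higher were 8.59% and 11.6%. Lcn2, the siderophore-binding lipocalin, had 2.75, 4.28 and 7.80 CPM in 4-week β-cells and 97.8, 97.6 and 101 CPM in 8-week β-cells. It rose by 4.43 on the log2 scale in β-cells (adjusted p = 9.70e-07) and by 5.54 in non-β-cells (adjusted p = 4.20e-07). At 8 weeks the β fraction had less Lcn2 than the non-β fraction (−0.60, adjusted p = 0.00730), whereas Reg3b was higher in β-cells. Of the 9 tested acute phase genes, 3 were higher and 6 lower in β-cells at that age, beside 3688 and 3991 of all 15598 genes. The 3 higher genes had means of 24.4 (Fga), 71.5 (Fgg) and 398 CPM (Serpina3n) in β-cells. In non-β-cells they had 8.65, 28.8 and 232 CPM. The 3 values of Lcn2 in 8-week β-cells lay within 97.6 to 101 CPM, and Reg3b in the same samples ranged from 6.94 to 14.1 CPM. This contrast in spread was not tested.

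**Figure D4:**
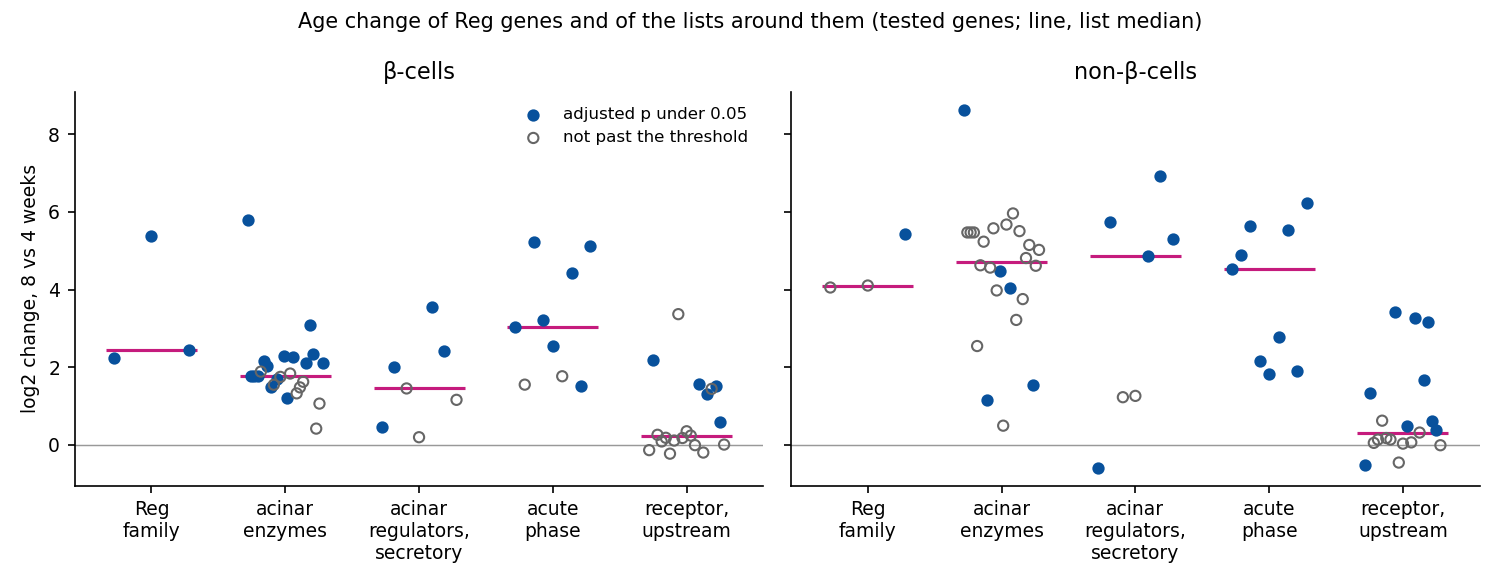
Log2 fold change between 8 and 4 weeks (y axis) of tested genes in β-cells (left) and non-β-cells (right), by list (x axis), with genes past an adjusted p of 0.05 as filled points, the others as open circles and the list median as a line. In β-cells the medians were 2.43 for the Reg family, 1.77 for acinar enzymes, 1.45 for acinar regulators and secretory genes, 3.04 for acute phase genes and 0.23 for the receptor and upstream list.

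Markers of other cells that the sort could hold were read in the same way. Of 13 duct markers 11 were tested, and in β-cells 1 rose and 3 fell, while in non-β-cells 8 rose and none fell. Among all 15598 tested genes, 1340 rose and 1459 fell in β-cells, and 1813 rose and 748 fell in non-β-cells. Krt19 rose by 3.74 (adjusted p = 0.000882) and Sox9 by 1.42 (adjusted p = 0.000776) in non-β-cells. All 7 endothelial and all 7 mesenchymal markers rose with age in non-β-cells, while none of the endothelial and 1 of the mesenchymal markers rose in β-cells. In 8-week non-β-cells the sums of the endothelial list reached 296 to 805 CPM and those of the mesenchymal list 654 to 1049 CPM, against 11.9 to 15.7 and 25.7 to 52.4 CPM in 8-week β-cells. The part of these cells in the Reg values of the non-β fraction was not tested.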

How the data were processed

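According to its methods section, fastp was used for trimming, after which the authors assigned reads with kallisto to mouse transcripts of Ensembl 98 (GRCm38) and summed them to genes with tximport. They deposited estimated counts per gene, neither scaled nor filtered. Tool versions are not given in the sources used here. From 14% to 19.3% of a sample's values were not whole, and all were rounded. Symbols were matched for 51916 of 52962 identifiers.

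Genes with a CPM above 1 in at least 3 of 12 samples were kept (15598), scaled by TMM (edgeR 4.0.16) and tested two-sided by limma-voom in a model of 4 group means (R 4.3.3, limma 3.58.1), with Benjamini-Hochberg adjustment over all tested genes and 0.05 as threshold, as in the study's methods. The reported fold changes are fitted log2 values. Ratios of summed CPM had 0.5 CPM added and were compared by exact permutation tests. Motifs were sought in RefSeq windows of 250 bases before and 50 after each start. Genes named are the 6 members, the listed genes, and the 3 genes with a symbol most correlated with each tested member (log2 CPM, prior count 2). The members and lists were chosen with earlier results of these data known. The alternatives were edgeR, DESeq2 1.42.0, other scalings and filters, quality weights, a replicate block, acinar covariates and leaving out each sample. edgeR without a filter and edgeR with the Cpa1 and Cpb1 covariate were added after seeing the data. Nothing in the labels ties samples to separate animals beyond their replicate numbers, so p-values measure the spread between these samples. The fits were tested on simulated data.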

Additional observations from a re-analysis of the deposited data

How the results depend on the processing

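Between ages in β-cells, 3 Reg genes were called, 5 without the filter on low counts, and 0 with either acinar covariate in limma-voom or with the Cpa1 and Cpb1 covariate in edgeR. Leaving out a sample gave 1 to 3. In non-β-cells the count was 1 with age. It was 2 with edgeR or without the filter, 3 with edgeR without the filter, 0 with quality weights and with each of the 3 covariate fits, and 0 to 1 when a sample was left out. Between fractions at 4 weeks it was 0. It was 1 with edgeR, DESeq2, no filter, a filter of at least 10 counts in 6 samples, a model of the groups compared or the acinar list covariate, 2 with edgeR without the filter, and 0 to 1 when a sample was left out. At 8 weeks it was 1. It was 2 without the filter, 3 with quality weights, 0 with edgeR (with or without the filter), DESeq2 and the 3 covariate fits, and 0 to 2 when a sample was left out. The interaction count was 0 in 24 of 24 alternatives.

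Equal replicate numbers were not taken to pair the samples, since no label says so and in no comparison did all 3 same-numbered pairs have deviations correlated above 0.1 (mean r from 0.0145 to 0.173). Between fractions at 4 weeks the 3 correlations were 0.0797, 0.133 and 0.306, but not every sample correlated best with its own number. When replicate numbers were nevertheless used as a replicate block, the calls were 3 with age in each fraction, 2 between fractions at 4 weeks and 3 at 8 weeks.

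Some signs reversed. Reg2 between fractions at 4 weeks (−0.34) became 0.12 with edgeR, 0.15 with edgeR without the filter, 0.18 with DESeq2, 0.11 with quality weights and 0.17 with the replicate block, and ranged from −2.05 to 1.37 when a sample was left out. With the Cpa1 and Cpb1 covariate, Reg1 became −0.20 in limma-voom and −0.85 in edgeR with age in non-β-cells, −0.066 and −0.81 between fractions at 4 weeks, and 0.53 and 1.25 for the interaction. Leaving out a sample moved the interaction of Reg1 over −3.30 to 0.36 and that of Reg2 over −0.44 to 2.99. None of these values was called. With 28 acinar enzymes as denominator, the difference in log2 Reg ratio became 0.33 with age in non-β-cells and 0.11 between fractions at 4 weeks. Leaving out a sample, with Cpa1 and Cpb1 as denominator, moved the age difference in mean log2 ratio over 0.35 to 0.56 in β-cells. In non-β-cells it was −2.00 to −0.52. The difference between fractions was −2.14 to −0.66 at 4 weeks and 0.11 to 0.51 at 8 weeks. The causes were not tested. Of 437 single-gene values under alternatives, 347 kept their direction and side of the threshold. Reg3a, Reg3d and Reg3g rested on at most 49 counts in a sample, and Reg differences in 4-week non-β-cells rested on at most 91.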
